A study of Homo sapiens with 4 samples.

Results

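The HOX genes encode homeodomain transcription factors. All 39 human protein-coding genes named HOXA, HOXB, HOXC or HOXD plus a number, of 20037 protein-coding genes in the RefSeq table, were examined for acetylation of lysine 14 on histone H3 (H3K14ac). They lie in 4 clusters, with 11 genes in HOXA on chromosome 7, 10 in HOXB on chromosome 17, 9 in HOXC on chromosome 12 and 9 in HOXD on chromosome 2. MKN45, an established gastric cancer cell line, carried either a non-targeting short hairpin RNA (shNT) or a hairpin against NIT2 (shNIT2), a metabolic amidase. Each condition had 1 H3K14ac library and 1 input library. Each H3K14ac library was deposited as a list of enriched regions, while values of the inputs were not used here. A gene was called marked when a region of a list overlapped its span, extended by 1 kb on both sides, by at least 1 bp. With 1 library per condition no difference had a replicate check and no test was made.

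HOX genes specify position along the body axis, and their order along a cluster follows the order of their expression domains. Genes of the same number in different clusters are paralogs. Genes at the low-numbered end act anteriorly, while the high-numbered genes, related to the fly gene Abdominal-B, act in the lumbar, sacral and distal limb regions and in the hindgut and genital tract. Silent HOX clusters are textbook targets of Polycomb repression, and Trithorax-group methyltransferases keep active ones open. H3K14ac is found at active promoters and enhancers. Here groups 1 to 8 were taken as anterior (23 genes) and groups 9 to 13 as posterior (16 genes).

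The shNT list, of 39876 regions, was far shallower than the shNIT2 list, of 28187. Summits held a median of 6 fragments in shNT against 22 in shNIT2, over a lowest background of 0.278 against 2.48 fragments. Total reads are unknown. Of 20 gut epithelium markers, 17 were marked in shNIT2, the exceptions being KRT20, CLDN3 and CDX1, and 10 in shNT. In shNIT2, 2 of 8 fibroblast, 5 of 8 leukocyte, 0 of 4 endothelial and 3 of 5 neuron markers were marked. In shNT these counts were 0, 2, 2 and 2. Of all protein-coding genes 47.0% were marked in shNIT2 and 28.5% in shNT. The shNIT2 shares of gut epithelium (85%), leukocyte (62.5%) and neuron (60%) markers were above that, those of fibroblast and endothelial markers below. The part of other cell types in the HOX results was not tested.

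Of the 39 HOX genes, 17 (43.6%) were marked in the shNIT2 list and 0 in the shNT list. Under the same rule 47.0% of all protein-coding genes were marked in shNIT2 and 28.5% in shNT. HOX genes are short, with a median span of 3785 bp against 24115 bp for all protein-coding genes. Among protein-coding genes of at most 10 kb, 29.5% were marked in shNIT2 and 6.99% in shNT. Of the 33 HOX genes of that size, 12 (36.4%) were marked in shNIT2. Among the 12260 genes within the range of HOX gene lengths, 1677 to 45574 bp, the shares were 42.7% and 15.9%. The share of HOX genes marked in shNIT2 was thus near that of genes at large, and none was marked in the shallower list. Marked in shNIT2 alone were 17 of 39 HOX genes and 27.4% of all genes. Marked in both lists were 0 HOX genes and 19.6% of all, and in shNT alone 0 and 8.90%. Hairpin and depth cannot be told apart in that contrast.

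The family count moved with the rule, and so did the background. Without an extension 16 HOX genes were marked in shNIT2, against 43.0% of all genes in shNIT2 and 26.8% in shNT. With 5 kb 25 HOX genes were marked in shNIT2 and 1 in shNT, against 50.9% and 33.4%. With a summit required inside the window 17 were marked, against 46.4% and 28.3%. At a −log10 q of at least 5 the count was 14, against 36.0% and 5.93%. With the 10000 regions of highest −log10 p it was 10, against 24.3% and 3.08%. Within 1 kb of either gene end, a window chosen after seeing the data, it was 14, against 36.8% and 6.41%. Except for the 5 kb window, each of these rules gave 0 marked HOX genes in shNT.

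**Figure D1:**
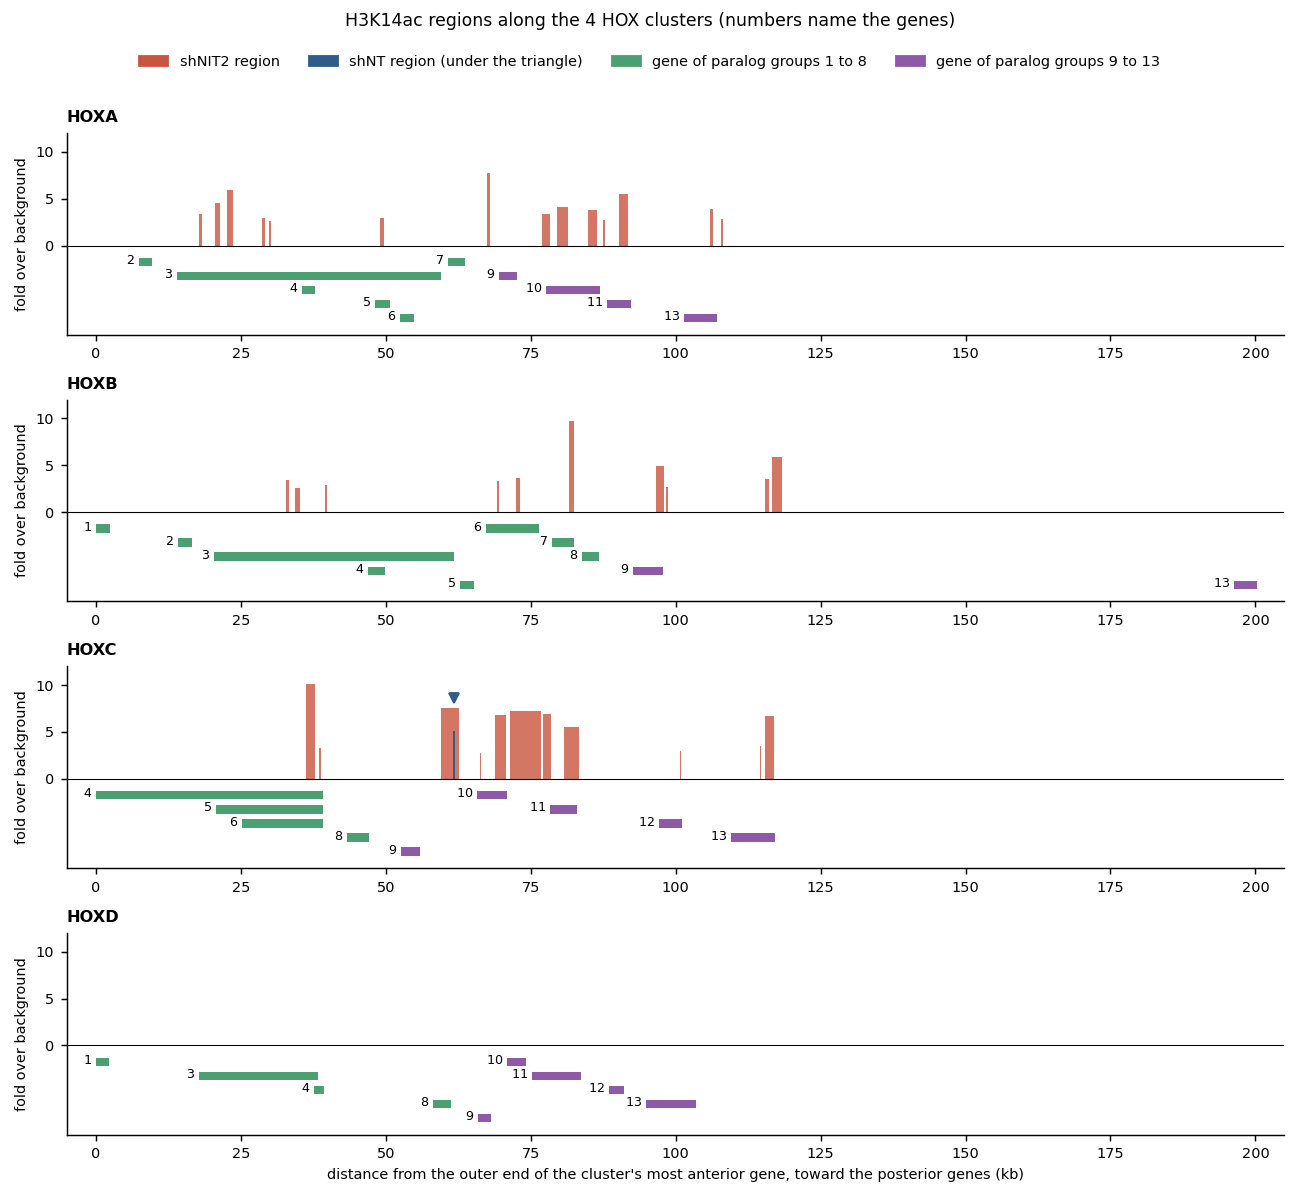
Regions of the shNIT2 list (red bars) and the shNT list (blue bar, under the triangle) along the 4 clusters, without a gene not reported here and its region. The vertical axis is the authors' fold over background, the horizontal axis the distance in kb from the outer end of the most anterior gene, and boxes are spans of the genes shown, green for groups 1 to 8 and purple for groups 9 to 13. HOXD holds no region, HOXC holds the highest region and the widest one, and the single shNT region lies within a wider shNIT2 region.

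The 17 marked genes carried 32 different shNIT2 regions. These covered 8.19% of the extended HOX spans, against 4.41% for genes of at most 10 kb and 1.11% for all protein-coding genes. Their median width was 650.5 bp, against 569 bp for regions on all protein-coding genes. Their median fold over background was 3.46, against 4.23 for all genes, on a median pileup of 26.5 against 22 fragments and a median background of 5.75 against 4.08 fragments. No HOX region overlapped a shNT region. Of the 26051 shNIT2 regions in the same range of −log10 q, from 1.53 to 35.6, 9.21% did.

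The clusters differed from each other. HOXC had 7 of 9 genes marked in shNIT2 (77.8%), HOXA 6 of 11 (54.5%), HOXB 4 of 10 (40.0%) and HOXD 0 of 9, against 47.0% of all protein-coding genes. The order of HOXA and HOXB turned at a −log10 q of at least 5, with 36.4% and 40.0%, and with the 10000 regions of highest −log10 p, with 2 of 11 and 2 of 10. Over the alternatives HOXA ranged from 2 to 10 of 11. The regions covered 12.7% of the extended spans in HOXC, 12.5% in HOXA, 5.83% in HOXB and none in HOXD. The median fold was 6.10 in HOXC, 3.36 in HOXA and 3.36 in HOXB. The median background under those regions was 4.47, 7.02 and 4.85 fragments in the same order. HOXA and HOXC were therefore covered to a like extent, but the HOXC regions were fewer (10 against 14) and wider (median 1467 against 545 bp). Their median fold was higher over a lower background, while the median pileup was alike, 28.5 fragments in HOXC and 27 in HOXA. Neighbouring genes share regions, so the counts of genes within a cluster are not independent.

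**Figure D2:**
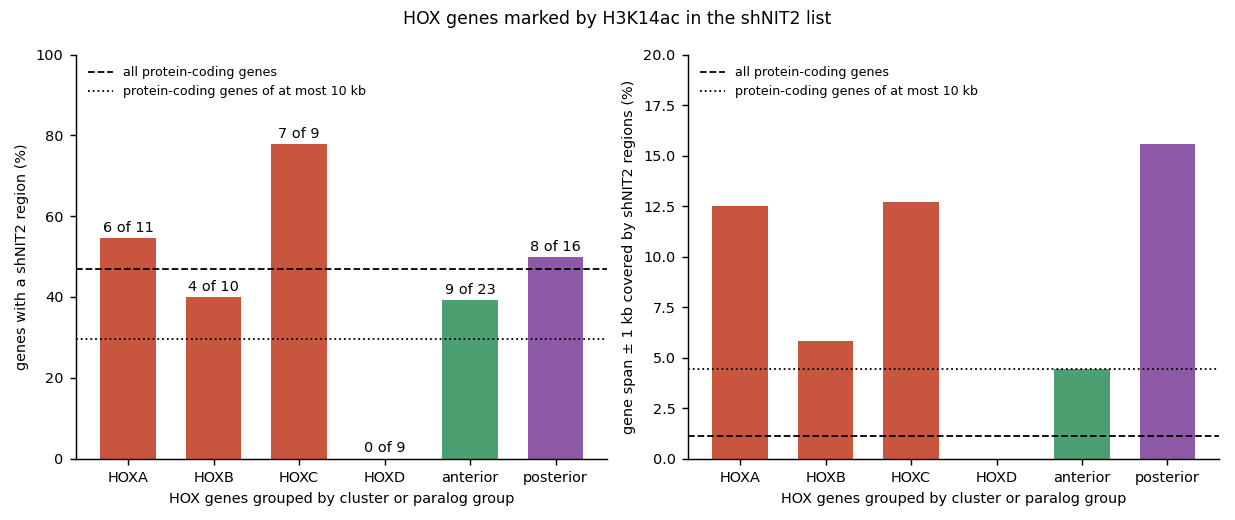
Left, the percentage of genes with a shNIT2 region by cluster (red), and for anterior (green) and posterior (purple) genes, with the counts above the bars. Right, the percentage of the gene spans extended by 1 kb that shNIT2 regions covered. Dashed lines give the value over all protein-coding genes and dotted lines that over genes of at most 10 kb. HOXC is the highest cluster in both panels, HOXD is at 0, and the posterior bar is above the anterior one.

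Posterior genes were covered more densely than anterior ones. In shNIT2, 8 of 16 posterior genes (50%) and 9 of 23 anterior genes (39.1%) were marked, on either side of the 47.0% of all protein-coding genes. With an extension of 5 kb the order turned, with 65.2% of the anterior and 62.5% of the posterior genes marked. The regions covered 15.6% of the posterior and 4.42% of the anterior extended spans, with median widths of 1267 and 577 bp. Without HOXD the counts were 8 of 11 and 9 of 19, and the coverage was 22.5% and 5.20%. The higher posterior coverage held in each cluster with regions. It was 24.8% against 6.58% in HOXA, 12.4% against 4.70% in HOXB and 24.3% against 4.21% in HOXC. Posterior HOXB is 2 genes, of which only HOXB9 was marked. Over all protein-coding genes 1.11% of the spans was covered, against 4.41% over genes of at most 10 kb. The longest HOX spans, HOXA3 (45574 bp), HOXB3 (41372 bp) and HOXC4 (39143 bp), are anterior. The part of span length in the coverage contrast was not tested. Of the anterior genes of at most 10 kb, 4 of 17 (23.5%) were marked, among them HOXA5, HOXB6 and HOXB7. All 16 posterior genes are of that size, and 8 (50%) were marked. The share over all protein-coding genes of that size was 29.5%. The other 5 marked anterior genes, HOXA3, HOXB3, HOXC4, HOXC5 and HOXC6, have spans over 10 kb.

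**Figure D3:**
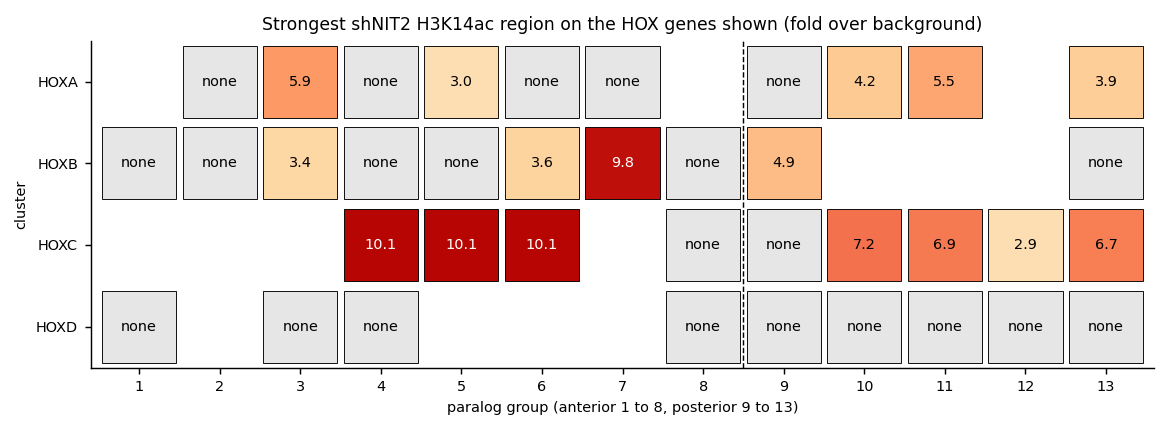
The strongest shNIT2 region on each HOX gene shown, as the authors' fold over background, with clusters in rows and paralog groups in columns. Grey cells marked none are genes without a region, white places are paralogs that do not exist or are not reported here, and the dashed line separates anterior from posterior genes. Groups 10 and 11 are marked in HOXA and HOXC and not in HOXD, and groups 2 and 8 have no marked gene.

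By paralog group, 2 of 3 genes were marked in each of groups 3, 5, 6, 10 and 11, against 47.0% of all protein-coding genes. Groups hold only 2 to 4 genes, so these counts give no ranking of groups. HOXC5 and HOXC6 were marked by the same regions, and the region that marked HOXA5 also lay on HOXA3. Groups 2 and 8 had none of 2 and none of 3. In group 9 only HOXB9 of 4 genes was marked, and in group 13 HOXA13 and HOXC13 of 4. The unmarked genes were HOXA2, HOXA4, HOXA6, HOXA7, HOXA9, HOXB1, HOXB2, HOXB4, HOXB5, HOXB8, HOXB13, HOXC8 and HOXC9, besides the whole HOXD cluster.

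The highest HOX region of the shNIT2 list and the widest one both lay in HOXC, while the next highest, of 9.77-fold, lay on HOXB7. HOXC4, HOXC5 and HOXC6 share an outer start in RefSeq (54016888) and shared both of their regions. The stronger, from 54018189 to 54019719, had a fold of 10.1 on 54 fragments and lay higher than 93.9% of the list. The other, from 54017178 to 54017624, had a fold of 3.33. These 3 genes thus count as marked through the same pair of regions near the shared start.

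HOXC10, a posterior gene of the lumbar and hindlimb region, had 3 regions in shNIT2. The widest, from 53979344 to 53984695, spanned 5352 bp, wider than 99.8% of the list, with a fold of 7.18 on 52 fragments. It ended 450 bp upstream of the gene's 5′ end and overlapped the antisense gene HOXC-AS3. The next began 222 bp downstream of that end (53985369 to 53987170, 6.83-fold on 35 fragments), and a weak one lay further along (2.74-fold). HOXC10 was therefore flanked on both sides of its start by wide regions. HOXC11 next to it had a region over its 5′ end (53972698 to 53975256, 5.49-fold on 29 fragments), which also overlapped HOTAIR, a long noncoding RNA of the cluster. A second HOXC11 region followed at its 3′ end (53977557 to 53978959, 6.88-fold). HOXC13, needed for hair and nail formation, had a region of 6.72-fold on 28 fragments (53939076 to 53940617) and one of 3.53-fold. HOXC12, between HOXC13 and HOXC11, had only a small region of 279 bp (2.93-fold on 15 fragments).

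One further HOXC region marked no protein-coding HOX gene. It ran from 53993429 to 53996585 between HOXC10 and HOXC9, 3149 bp from HOXC10, with a fold of 7.57 on 50 fragments, and overlapped HOXC-AS2. Within it lay the only shNT region inside any of the 4 clusters, from 53994123 to 53994465, with a fold of 5.08 on 8 fragments. The shNT list thus had a region inside a HOX cluster, which lay outside the window of every protein-coding HOX gene.

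In HOXA the marked genes fell into an anterior and a posterior stretch. HOXA3, which acts in pharyngeal organ formation, had 6 regions in its long span. The strongest, from 27115551 to 27116630, had a fold of 5.89 on 47 fragments, and the next, from 27113584 to 27114311, one of 4.49 on 35 fragments. The remaining 4 had folds of 2.62 to 3.37, and the one at 27142026 to 27142641 (2.95-fold) lay within HOXA5, which it marked. No region lay on HOXA2, HOXA4, HOXA6 or HOXA7.

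The posterior HOXA stretch was more densely covered. HOXA10, which acts in the uterus and in the haematopoietic system, had 4 regions with folds of 3.35, 4.16, 3.80 and 2.77, of which the widest spanned 1932 bp. HOXA11, its neighbour with roles in forearm and uterus, had a region of 5.52-fold on 37 fragments (27183266 to 27184731) and shared the 2.77-fold one. HOXA13, a gene of digits, hindgut and genital tract, had regions of 3.89-fold on 27 and 2.88-fold on 20 fragments, the latter over the noncoding gene HOTTIP. The highest HOXA value, 7.71-fold on 34 fragments, came from a region outside the windows of all HOX genes, from 27160397 to 27161014 between HOXA7 and HOXA9, 1423 bp from HOXA9. HOXA9 itself had no region.

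The highest HOXB region covered the first part of HOXB7, from 48610073 to 48611002, with a fold of 9.77 on 46 fragments, above 93.4% of the shNIT2 list. HOXB9 followed with 4.90-fold on 32 fragments over its 5′ end (48625215 to 48626451) and a second region of 2.69-fold on 12 fragments. HOXB6 had regions of 3.33- and 3.60-fold, and HOXB3 3 regions of 2.60- to 3.39-fold inside its span. The anterior end, HOXB1 and HOXB2, was unmarked. HOXB13, a gene of the prostate and hindgut that stands apart from the rest of the cluster, was unmarked too, with the nearest shNIT2 region 66394 bp and the nearest shNT region 29938 bp away. Between HOXB9 and HOXB13 a pair of regions of 3.54- and 5.86-fold overlapped the noncoding gene LINC02086.

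HOXD held no region in either list, over 103.4 kb from HOXD1 to HOXD13, the latter a gene of digit formation. Counted from the cluster extended by 1 kb, the nearest shNIT2 regions lay 85582 bp before and 804428 bp after it, and the nearest shNT regions 55569 and 86133 bp. Few regions lay around it as well. Within 1 Mb on either side the shNIT2 list had 6 regions, against 40 around HOXA, 47 around HOXB and 59 around HOXC. The shNT list had 13, against 24, 32 and 38. Those flanks held 5 other protein-coding genes at HOXD, 10 at HOXA, 38 at HOXB and 46 at HOXC. The median background of the flanking shNIT2 regions was 4.36 fragments at HOXD, 7.66 at HOXA, 5.74 at HOXB and 6.30 at HOXC. HOXD was thus bare within a neighbourhood sparse in regions and genes, and the part of local coverage in its count of 0 was not tested.

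**Figure D4:**
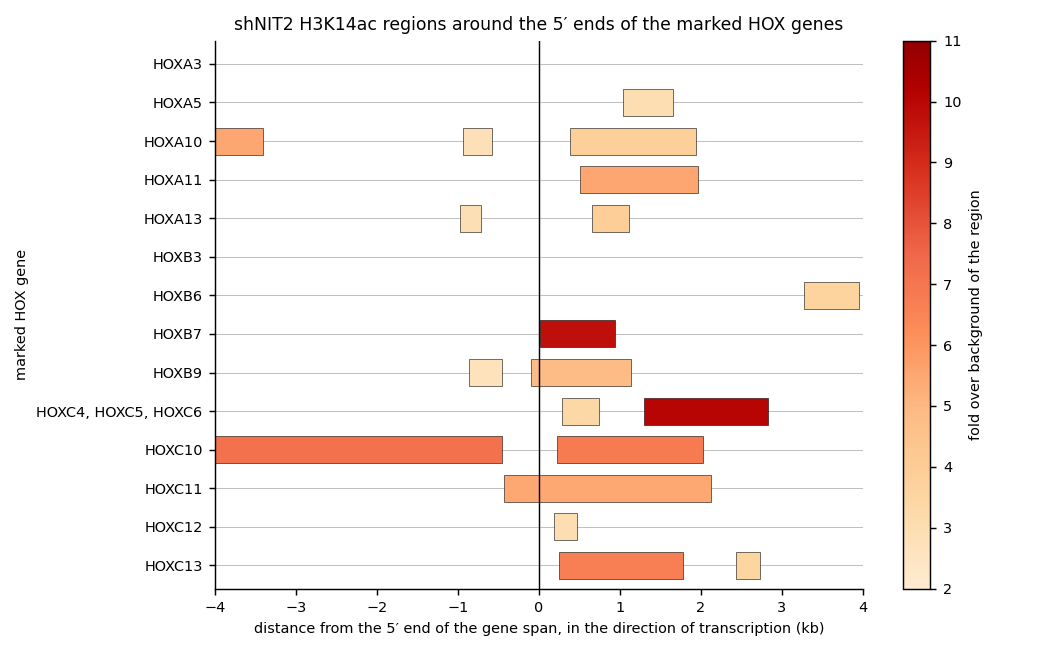
The shNIT2 regions within 4 kb of the 5′ ends of the marked genes shown, drawn by distance in kb in the direction of transcription and coloured by the authors' fold over background. Of the genes shown, the 5′ end itself lies inside a region only for HOXB9 and HOXC11, and regions sit on both sides of it for HOXA10, HOXA13 and HOXC10.

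Regions stood beside gene starts more often than over them. The 17 marked genes have 15 different 5′ ends, of which 2 (HOXB9 and HOXC11) lay inside a shNIT2 region. Another 9 lay within 1 kb of one and 4 (HOXA3, HOXA5, HOXB3 and HOXB6) lay farther away. Marking required a region on the span extended by 1 kb, so closeness to these ends is partly built in. Among the 37 different 5′ ends of all HOX genes, 2 lay inside a region, 9 within 1 kb and 26 farther away. At HOXA10, HOXA13 and HOXC10 regions lay within 1 kb on both sides. At HOXB7 the region began 14 bp downstream of the 5′ end. Starts in the RefSeq promoter table (GRCh38.p14), which matched 20 of the 39 genes with 26 different start sites, gave 3 inside a region (11.5%) and 5 within 1 kb (19.2%). The genes not matched included HOXA5, HOXB2 to HOXB9, HOXB13, HOXC6, HOXC8 to HOXC13 and HOXD9, while 8 of the 26 start sites were of HOXD genes. For all 22012 protein-coding start sites these shares were 7.72% and 29.3%. Within 1 kb or inside lay 8 of 26 HOX start sites (30.8%) in shNIT2 and 0 in shNT, against 37.0% and 5.45% of all. Starts beside a region thus outnumbered starts inside one both among the matched HOX genes and at large. The 3 HOX start sites inside a region were inner starts, 2 of HOXA3 and 1 of HOXA10.

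The sequences of 4 start sites show both cases. Each runs from 250 bases before to 50 after the start, 5′ to 3′ on the strand of the gene, with CpG dinucleotides in capitals. The first pair are the inner HOXA3 and HOXA10 starts that lay inside a region, the third is the start shared by HOXC4 and HOXC5, 289 bp from the nearest region, and the last is HOXD10, 115873 bp from one.
HOXA3, chr7:27113793-27114092, minus strand: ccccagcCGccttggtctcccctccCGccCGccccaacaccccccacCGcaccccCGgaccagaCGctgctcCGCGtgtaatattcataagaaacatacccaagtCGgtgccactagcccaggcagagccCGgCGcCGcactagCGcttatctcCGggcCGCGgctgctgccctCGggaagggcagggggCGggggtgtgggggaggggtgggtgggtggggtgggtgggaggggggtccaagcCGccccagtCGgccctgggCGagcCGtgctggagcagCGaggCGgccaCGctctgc
HOXA10, chr7:27174271-27174570, minus strand: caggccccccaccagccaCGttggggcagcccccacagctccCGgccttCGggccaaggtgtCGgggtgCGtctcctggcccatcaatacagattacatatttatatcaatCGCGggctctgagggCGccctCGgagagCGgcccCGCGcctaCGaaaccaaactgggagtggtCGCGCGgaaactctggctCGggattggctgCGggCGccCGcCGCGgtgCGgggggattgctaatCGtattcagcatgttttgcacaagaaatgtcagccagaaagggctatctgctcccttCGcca
HOXC4 and HOXC5, chr12:54016638-54016937, plus strand: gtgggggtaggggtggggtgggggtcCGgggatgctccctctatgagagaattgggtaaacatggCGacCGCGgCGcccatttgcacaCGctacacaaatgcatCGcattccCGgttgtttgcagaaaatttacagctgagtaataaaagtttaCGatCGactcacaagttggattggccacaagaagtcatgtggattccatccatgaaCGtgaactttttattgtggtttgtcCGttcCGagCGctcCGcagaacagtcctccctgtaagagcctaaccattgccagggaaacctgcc
HOXD10, chr2:176116528-176116827, plus strand: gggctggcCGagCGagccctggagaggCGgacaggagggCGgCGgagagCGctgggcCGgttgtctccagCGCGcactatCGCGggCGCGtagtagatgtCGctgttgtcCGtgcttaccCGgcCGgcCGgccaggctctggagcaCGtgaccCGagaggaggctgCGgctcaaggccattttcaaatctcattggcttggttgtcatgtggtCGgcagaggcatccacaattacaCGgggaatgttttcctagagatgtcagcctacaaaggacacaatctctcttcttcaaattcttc

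These windows held 25, 25, 15 and 23 CpG dinucleotides in turn. Among the 26 start sites of matched genes, CpG content was not higher near the mark. The 8 HOX start sites with a shNIT2 region within 1 kb had a median of 18 CpG (range 7 to 44) and the 18 without had 23.5 (0 to 36). The 8 HOXD start sites, all among those 18, had 24.5 (4 to 36), and all protein-coding start sites 21. HOXA3 and HOXA10 gave several start sites each, HOXA3 in both groups. The sites are therefore not independent, and the contrast is in large part one between clusters. The homeodomain core TAATTA, searched on both strands, occurred in 2 of the 26 HOX windows (7.69%), HOXD3 and HOXD11, and in 3.40% of all windows. The TATA core TATAAA, counted on either strand and at any position, occurred in 5 HOX windows (19.2%) and in 9.49% of all. Such a count does not say whether a match is a TATA box placed before a start. No match says only that these letters were not in the window.

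Noncoding genes were marked in the same 3 clusters as the coding ones. Except for HOXC-AS2, the strongest region of each marked noncoding gene also lay on a HOX gene. The match of clusters thus largely follows from shared regions and is no separate observation. Of 23 noncoding genes of the clusters, 12 (52.2%) were marked in shNIT2, and 1, HOXC-AS2, in both lists. Most of the 23 span at most 10 kb. In shNIT2 47.0% of all protein-coding genes and 29.5% of those of at most 10 kb were marked. HOXC-AS2 (7.57-fold) and HOXC-AS3 (7.18-fold) had the strongest regions. None of HOXD-AS2, HAGLR and HAGLROS in HOXD was marked. Of the 6 microRNA genes, MIR196B near HOXA10 was marked, with its hairpin 404 bp from a region of 3.35-fold. MIR196A2 in HOXC lay 1581 bp and MIR196A1 in HOXB 5272 bp from the nearest shNIT2 region, beyond the 1 kb limit. MIR10A lay 11516 bp, MIR615 14230 bp and MIR10B 149398 bp away. The mature sequences from RefSeq (GRCh38.p14) show that the marked and unmarked members of the miR-196 family share a seed, given in capitals (bases 2 to 8).
hsa-miR-196b-5p, chr7:27169528-27169549: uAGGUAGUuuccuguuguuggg
hsa-miR-196a-5p, chr12:53991762-53991783 and chr17:48632532-48632553: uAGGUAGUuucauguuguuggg
hsa-miR-10a-5p, chr17:48579904-48579926: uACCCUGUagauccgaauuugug
The miR-196 sequences differ by A12C, with the base of miR-196a-5p first and positions counted from 1 at the 5′ end.

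Genes that act with or upon the HOX genes were examined by the same rule, and their shares are read against the 47.0% of all genes in shNIT2 and 28.5% in shNT. Of 9 TALE homeodomain genes, whose products bind DNA together with HOX proteins, 6 were marked in shNIT2. PBX4 had 5.65-fold and PKNOX1 4.53-fold. In shNT 6 were marked, among them PBX3, PBX4, MEIS1, MEIS3 and PKNOX1, of which 4 were marked in both lists. The strongest shNT region of each had at most 5 fragments.

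Of 30 Polycomb genes, whose products silence HOX clusters, 22 were marked in shNIT2, led by RBBP4 (8.42-fold) and the H3K27 methyltransferase gene EZH2 (7.40-fold). The 10 marked in shNT were also marked in shNIT2, namely EZH1, EZH2, SUZ12, RBBP4, JARID2, PHF19, AEBP2, PCGF3, PCGF6 and KDM2B. Of 17 Trithorax genes and activators, 13 were marked in shNIT2, led by the H3K79 methyltransferase gene DOT1L (19.6-fold) and the H3K27 demethylase gene KDM6B (12.3-fold). KMT2A, KDM6A, ASXL2 and CTCF were marked in both lists, KMT2C and RBBP5 in shNT alone.

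The ParaHox and related homeobox genes, unlike the TALE genes, were marked in the shNIT2 list only. Of these 19 genes, 7 (36.8%) were marked in shNIT2 and 0 in shNT. Most of them span at most 10 kb, a size at which 29.5% of protein-coding genes were marked in shNIT2 and 6.99% in shNT. MNX1 had 7.07-fold and DLX4 6.72-fold. Of 13 genes of the retinoic acid pathway, which induces HOX genes in the embryo, 6 were marked in shNIT2, led by the receptor gene RXRA (28.7-fold) and the retinaldehyde dehydrogenase gene ALDH1A3 (8.24-fold). RARB, RARG and RXRA were marked in both lists.

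The genes next to the clusters carried regions in both lists. Of 18 neighbours, 10 were marked in shNIT2 and 8 in shNT, 7 of them in both. SKAP1 beside HOXB (15.5-fold in shNIT2 and 11.1-fold in shNT, folds that rank regions within each list only) and HIBADH beside HOXA (7.09-fold in shNIT2) were marked in both, as were SKAP2, SNX10, TTLL6, ATF7 and LNPK. MTX2, beside HOXD, was marked in shNT alone. EVX1 and EVX2, homeobox genes at the posterior ends of HOXA and HOXD and also counted above, were unmarked in both lists. The shNT list thus reached at least 1 listed neighbour of each cluster. At HOXC this was ATF7 alone, which ends at 53626382, while the cluster starts at 53938831. The other listed HOXC neighbours, CALCOCO1, SMUG1, CBX5, HNRNPA1 and NFE2, were unmarked in shNT. The 8 neighbours marked in shNT span 54996 bp (TTLL6) to 311620 bp (SKAP1). The longest neighbour not marked there, CBX5, spans 49181 bp, against the HOX median of 3785 bp.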

How the data were processed

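Enriched regions were taken from 1 deposited list per H3K14ac library. Per the submitters' processing notes the build was hg38 and the tools included Trimmomatic 0.35, cutadapt 1.9.1, FastQC, ChIPseeker, Bowtie2 2.2.6 and MACS2 2.1.1. The sources used here do not say whether an input served as the caller's control. The deposited columns give each region a score (10 times the −log10 q), a fold, that is the ratio of summit pileup to background with a pseudocount of 1 on each, a −log10 p-value, a −log10 q-value and a summit offset. The fold is the authors' own value and ranks regions within a list only. The smallest deposited −log10 q was 1.30 in each list.

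Gene spans came from RefSeq (GRCh38.p14, the chromosomes of hg38). Coordinates are 1-based. Pileup and background were solved from the fold and the −log10 p with the Poisson upper tail, which gave a whole pileup within 0.1% for 99.96% of regions in each list. The 5′ end of a span was taken from the direction of transcription of its cluster, which the promoter table gave alike for all 20 genes it held. The overlap search was tested on simulated data and gave the right regions in 5000 of 5000 intervals, and 1828 of 1828 simulated pileups were recovered. Python 3.11.15, pandas 2.3.3 and scipy 1.17.1 were used.

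The members, the gene lists and the rule for naming genes (all HOX genes may be named, with values at least for the 3 strongest of each cluster in shNIT2; of each other list the 2 strongest in shNIT2 and every gene marked in shNT) were chosen with earlier results of these data known. Unmarked genes of other lists and regions outside the gene windows were named after their values were seen. Alternatives varied the extension of the span, the q threshold, the use of summits, the number of regions and the anterior groups. Values of single genes that are not reported here were kept in the counts and left out of the text and figures.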

Additional observations from a re-analysis of the deposited data

How the results depend on the processing

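Of 94 values under alternatives, 80 stayed, a count staying when within 1.5 times of the main one, and 14 moved. The values that stayed include 43 values of 0 in the shallow shNT list. They also include the zeros of HOXD in shNIT2 and of HOX regions shared between the lists. The tally is therefore no measure of how stable the counts above 0 were. HOXD had 0 marked genes under every alternative run. With an extension of 5 kb, 1 HOX gene was marked in shNT, the posterior gene HOXC10 of HOXC, and in shNIT2 HOXA had 10 of 11 and the anterior genes 15 of 23 (65.2%). The posterior share was then 62.5%, so the order of anterior and posterior turned there and in no other alternative run. That of HOXA and HOXB turned in the next setting and at −log10 q of at least 5. With the 10000 regions of highest −log10 p of each list, 10 HOX genes were marked in shNIT2, with 2 in HOXA, 2 in HOXB, 5 anterior and 5 posterior, on 11 regions. At −log10 q of at least 5 there were 18 regions. Within 1 kb of a gene end, a window chosen after seeing the data, HOXB had 2. With groups 1 to 3 as anterior, 3 of 8 were marked. HOXC had the largest share of marked genes in shNIT2 in each alternative run. No paired analysis was possible because each condition had 1 H3K14ac library. The shNT list was shallow, and a count of 0 there does not show that H3K14ac was absent.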
